A study of Mus musculus with 18 samples.

Results

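Metallothioneins are small cysteine-rich proteins that bind zinc and copper ions, and zinc transporters carry zinc across membranes. The 5 genes described here are the metallothioneins Mt1 and Mt2, the zinc importer Slc39a14, the zinc exporter Slc30a1 and the zinc-sensing transcription factor Mtf1, out of 24419 gene symbols measured in the left ventricle after acute myocardial infarction (AMI). They were chosen by symbol with earlier results of these mice in view, and the measured value behind the choice was the log2 difference of Mt2 between 6 h and sham, the largest of all genes. All 5 had an FPKM (fragments per kilobase of transcript, scaled to the mapped fragments of the library) of at least 1 in at least 1 mouse, the filter that left 13333 genes for testing. The hearts came from C57BL/6 mice 8 weeks old, and the study's methods give them as male and the tissue as the infarcted left ventricle. AMI was made by tying off the proximal left anterior descending coronary artery under pentobarbital, and 3 mice each were taken at 10 min, 1 h, 6 h, 24 h and 72 h. The other 3 mice were the control group, called sham in the study's figures and here. The study's methods do not describe a sham operation, and no controls were matched to the single times. Effects of the operation itself or of the time of day at sampling thus cannot be told apart from those of ligation. Each mouse gave 1 polyA RNA library, and the labels name no genotype or drug that differed between the groups.

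Zinc in a cell is mostly bound to proteins, and the free pool is kept small by importers of the Slc39a (ZIP) family, exporters of the Slc30a (ZnT) family and metallothioneins, which hold metal ions in clusters of cysteine thiolates. Mtf1 encodes the metal-responsive factor MTF1, which binds metal response elements (MRE) in promoters when zinc rises, and Mt1, Mt2 and Slc30a1 are its classical targets. Metallothionein genes also respond to glucocorticoids and to inflammatory cytokines through STAT3, and Slc39a14 is known as the importer induced by interleukin 6 in the acute-phase liver. In the heart, metallothionein is known as a scavenger of reactive oxygen species.

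The coding sequences of Mt1 and Mt2 are given because the cysteine codons show what these proteins are and because their likeness bears on how reads were shared. On mm10, by GENCODE release M21, Mt2 (chromosome 8, 94172664 to 94173568, plus strand) and Mt1 (chromosome 8, 94179082 to 94180327, plus strand) lie next to each other with 5513 bases between them. Cysteine codons (TGC or TGT) are in capitals, and the sequences run from the start codon to the stop codon across the exons.
Mt1: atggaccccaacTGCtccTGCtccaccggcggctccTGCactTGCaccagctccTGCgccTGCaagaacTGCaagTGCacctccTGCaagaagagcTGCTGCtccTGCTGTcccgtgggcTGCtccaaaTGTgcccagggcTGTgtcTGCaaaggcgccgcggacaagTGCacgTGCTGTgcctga
Mt2: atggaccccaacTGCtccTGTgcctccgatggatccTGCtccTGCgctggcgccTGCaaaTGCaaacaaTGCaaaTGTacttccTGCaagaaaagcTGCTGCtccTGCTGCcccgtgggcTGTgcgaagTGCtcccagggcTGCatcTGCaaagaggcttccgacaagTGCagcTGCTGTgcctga
Both coding sequences had 186 bases with the stop codon and 61 amino acid codons, of which 20, or 32.8%, were cysteine codons. All 20 stood at the same codon positions in both genes. The coding sequences were identical at 148 positions (79.6%), but the longest run shared by the transcripts was 20 bases. Mt2 overlaps the antisense gene Gm45774, and the library kit as described does not mark the strand, so reads from that gene could not be told apart from those of Mt2.

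Promoter sequences are given as MRE are the sites through which zinc acts on these genes. They cover the genes with a RefSeq entry whose window begins before the GENCODE gene start. A table of RefSeq promoters on GRCm38.p6 (the assembly also called mm10), each from 250 bases before the start to 50 after it, held 4 of the 5 genes, all but Slc39a14. Printed, on the plus strand, are the bases before the earlier of the RefSeq start and the GENCODE gene start. Matches to the MRE letters TGCACNC or TGCGCNC on either strand are in capitals. Mt1 is at chr8:94178839-94179081, Mt2 at chr8:94172368-94172617 and Slc30a1 at chr1:191906531-191906766.
Mt1: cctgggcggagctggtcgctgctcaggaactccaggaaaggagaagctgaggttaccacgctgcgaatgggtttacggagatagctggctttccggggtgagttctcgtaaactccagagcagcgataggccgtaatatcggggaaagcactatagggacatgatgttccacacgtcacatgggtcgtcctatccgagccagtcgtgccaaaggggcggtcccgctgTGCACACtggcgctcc
Mt2: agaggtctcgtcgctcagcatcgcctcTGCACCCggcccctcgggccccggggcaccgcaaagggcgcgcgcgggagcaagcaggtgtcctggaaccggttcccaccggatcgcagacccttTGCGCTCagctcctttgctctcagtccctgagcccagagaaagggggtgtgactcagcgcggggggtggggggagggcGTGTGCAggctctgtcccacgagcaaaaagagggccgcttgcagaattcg
Slc30a1: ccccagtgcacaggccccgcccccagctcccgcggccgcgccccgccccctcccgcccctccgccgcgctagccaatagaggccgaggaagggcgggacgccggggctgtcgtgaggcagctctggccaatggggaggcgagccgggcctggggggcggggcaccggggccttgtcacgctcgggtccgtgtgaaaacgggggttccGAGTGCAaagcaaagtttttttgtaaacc
In the whole windows of 300 bases, Mt2 held 4 MRE matches, Mt1 held 3 and Slc30a1 held 2. Of all 32851 promoters in the table, 25.7% held at least 1 match, 7.11% at least 2, 1.97% at least 3 and 0.517% at least 4. The Mtf1 window held 0 matches, and it lies inside the Mtf1 gene of GENCODE and is not printed. The antioxidant response element, searched as TGACNNNGC on both strands, was found 1 time in Mt2 and 1 time in Slc30a1, against 12.4% of all promoters with at least 1, and it overlapped no MRE match. Of 21 other metallothionein and zinc transporter genes with a promoter entry, 11 held at least 1 MRE match. The Mt1 and Mt2 windows end at 94179138 and 94172667, and their start codons begin at 94179311 and 94172848. The bases between were not searched. A match describes letters in this window and is not evidence of binding.

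Mt1 and Mt2 had their highest levels at 6 h, at which Mt2 passed Mt1 in mean FPKM. In the sham mice Mt1 had 279, 267 and 288 FPKM (mean 278 ± 10.4, SD, n = 3). At 10 min the mice had 336, 254 and 264 FPKM of Mt1, and at 1 h 523, 440.4 and 384 FPKM. The 10 min mice overlapped with sham, whereas every 1 h mouse lay above every sham and 10 min mouse (7.41% of all genes had all 1 h mice above all sham mice, and 6.19% all 1 h above all 10 min mice). At 6 h Mt1 had 3556, 3804 and 3648 FPKM (3670 ± 125), at 24 h 1143, 810.1 and 1722 FPKM (1225 ± 461) and at 72 h 214, 189 and 204 FPKM (202.5 ± 12.2). The 6 h mice stood above all other mice, the 24 h mice were spread over more than the range of any other group, and the 72 h mice lay below every sham mouse. Among all genes, 18.6%, 39.3% and 55.1% had no overlap with sham in the higher direction at 6 h, 24 h and 72 h. The share in the lower direction at 72 h was 25.4%.

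Mt2 started from a lower level and rose further. In the sham mice it had 36.5, 34.4 and 36.3 FPKM (35.7 ± 1.15), at 10 min 68.2, 36.1 and 42.6 FPKM and at 1 h 99.1, 84.1 and 76.2 FPKM. The first 10 min mouse stood apart from the others, which were close to sham, and the 1 h mice were again above all sham and 10 min mice. At 6 h Mt2 had 4027, 3488 and 3923 FPKM (3812 ± 286), at 24 h 911, 578 and 1983 FPKM (1157 ± 734) and at 72 h 112, 112 and 94.4 FPKM (106 ± 10.3). Mt2 at 72 h thus remained above every sham mouse and overlapped with the 1 h mice, while Mt1 at 72 h had gone below sham. Among the 24 h mice the third was highest in both genes, and without it the 24 h means were 977 FPKM for Mt1 and 744 FPKM for Mt2.

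**Figure D1:**
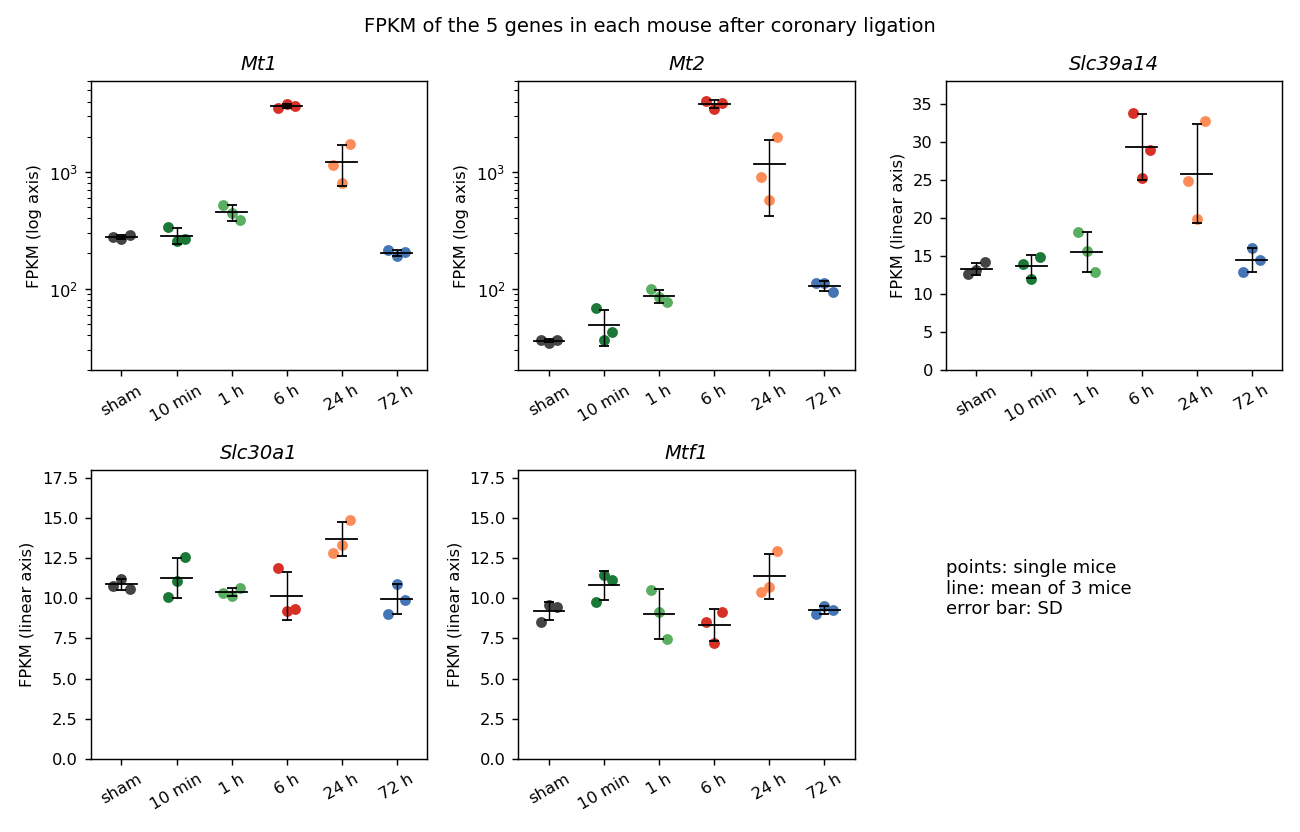
FPKM of Mt1, Mt2 (log axes), Slc39a14, Slc30a1 and Mtf1 (linear axes from 0) in each of 18 mice by time after ligation; points are mice, lines the mean of 3 mice and bars the SD. Mt1 and Mt2 peak at 6 h (means of 3670 and 3812 FPKM), Slc39a14 is highest at 6 h and 24 h, and Slc30a1 and Mtf1 stay between 7.23 and 14.9 FPKM in every mouse.

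Against sham, the mean FPKM at 6 h was 107 times as high for Mt2 and 13.2 times as high for Mt1, differences of 6.70 (SE 0.077) and 3.72 (SE 0.067) in mean log2(FPKM + 1). Since the genes were chosen with this comparison in view, it is given without a test. By that difference Mt2 had rank 1 and Mt1 rank 35 of 13321 genes. The other times were tested with limma on log2(FPKM + 1), each on its own 6 mice, with Benjamini-Hochberg adjustment over all genes, and a gene is called at an adjusted p under 0.05. These comparisons share the sham mice with the 6 h comparison that chose Mt2. At 10 min, where 0.248% of all genes were called higher and 0.0978% lower, 0 of the 5 genes were called by limma, and 1 (Mtf1) had an unadjusted p under 0.05. At 1 h, with 0.669% of genes called higher and 0.0526% lower, Mt2 rose 2.42-fold (log2 difference 1.24, SE 0.092, adjusted p = 0.000598, limma) and Mt1 1.62-fold (log2 difference 0.68, SE 0.10, adjusted p = 0.034, limma). The call of Mt1 at 1 h was lost without any 1 of the 3 sham mice or without the second 1 h mouse (adjusted p from 0.115 to 0.139), and with a fit of all 18 mice together neither Mt1 (adjusted p = 0.38) nor Mt2 (0.178) was called.

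At 24 h both metallothioneins were still high. Mt2 was 32.4 times the sham mean (log2 difference 4.79, SE 0.40, adjusted p = 0.00146, limma), with rank 12 of 13327 genes, and Mt1 4.41 times (log2 difference 2.07, SE 0.25, adjusted p = 0.00354, limma). At this time 26.2% of all genes were called higher and 11.4% lower, and 4 of the 5 genes, all but Mtf1, were called higher. At 72 h the pair parted, with Mt2 higher than sham (2.97-fold, log2 difference 1.54, SE 0.081, adjusted p = 5.12e-07, limma) and Mt1 lower (0.729 times sham, log2 difference -0.46, SE 0.073, adjusted p = 0.00044, limma). These were the only calls among the 5 genes at 72 h, where 53.1% of all genes were called higher and 24.2% lower.

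The whole distribution shifted at the late times, which bears on small differences. The median log2 difference of all genes was 0.13 at 24 h and 0.29 at 72 h with FPKM as deposited, 0.017 and 0.037 after median-of-ratios scaling, and -0.044 and -0.10 after quantile normalization. Genes called higher and lower numbered 7081 and 3226 at 72 h with FPKM as deposited, 5243 and 4752 after median-of-ratios scaling and 4386 and 5710 after quantile normalization. The corresponding numbers at 24 h were 3496 and 1516, 2535 and 2317, and 2215 and 2689, and at 6 h 1543 and 2233, 1977 and 1513, and 1688 and 2119. Mt1 and Mt2 kept direction and call at 24 h and 72 h under both scalings, with Mt1 at -0.77 and -0.60 and Mt2 at 1.23 and 1.39 on the log2 scale at 72 h.

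A further pair of comparisons used neither the sham nor the 6 h mice, whose difference was the value behind the choice, although results of these mice were also known when the genes were chosen. From 10 min to 1 h, where 0.391% of all genes were called higher and 0.211% lower, limma called 0 of the 5 genes, and 2 of them, Mt1 and Mt2, had an unadjusted p under 0.05. Mt2 changed by 0.85 (SE 0.21, adjusted p = 0.17, limma) and Mt1 by 0.66 (SE 0.14, adjusted p = 0.11, limma) on the log2 scale, with all 1 h mice above all 10 min mice in both genes. Without the first 10 min mouse, the one with 68.2 FPKM of Mt2, the log2 difference of Mt2 was 1.11 and it was called (adjusted p = 0.0139). From 24 h to 72 h, 13.5% of all genes were called lower and 29.7% higher, and 4 of the 5 genes were called lower. In all 5 genes, Mtf1 included, all 72 h mice lay below all 24 h mice, as in 19.1% of all genes. Mt2 fell by 3.25 (SE 0.40, adjusted p = 0.000789, limma) and Mt1 fell by 2.52 on the log2 scale (SE 0.25, adjusted p = 0.00032, limma).

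The balance between both metallothioneins moved with time and did not return to its starting point by 72 h. In the sham mice the ratio of Mt2 to Mt1 FPKM was 0.131, 0.129 and 0.126 (0.129 ± 0.00245). It was 0.203, 0.142 and 0.161 at 10 min and 0.190, 0.191 and 0.198 at 1 h, so that every mouse at either time lay above every sham mouse. The 6 h mice had ratios of 1.13, 0.917 and 1.08 (1.04 ± 0.112), the 24 h mice 0.797, 0.714 and 1.15 (0.887 ± 0.233) and the 72 h mice 0.526, 0.591 and 0.462 (0.526 ± 0.0644). The summed FPKM of the pair at 72 h (309 ± 15.1) overlapped with that of sham (314 ± 11.4), while the 72 h ratios lay above all those of sham, 10 min and 1 h. At 6 h the sum was 7482 ± 164 FPKM, and the pair held 1.27% ± 0.0483 of all FPKM against 0.0537% ± 0.00224 in sham. By rank of FPKM among all symbols, Mt2 went from 2124 to 2244 in the sham mice to 7 to 16 at 6 h, and Mt1 from 294 to 319 to 15 to 17. Both genes are members chosen with results known, and the ratio is given without a test. A scaling factor common to a mouse does not change this ratio.

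**Figure D2:**
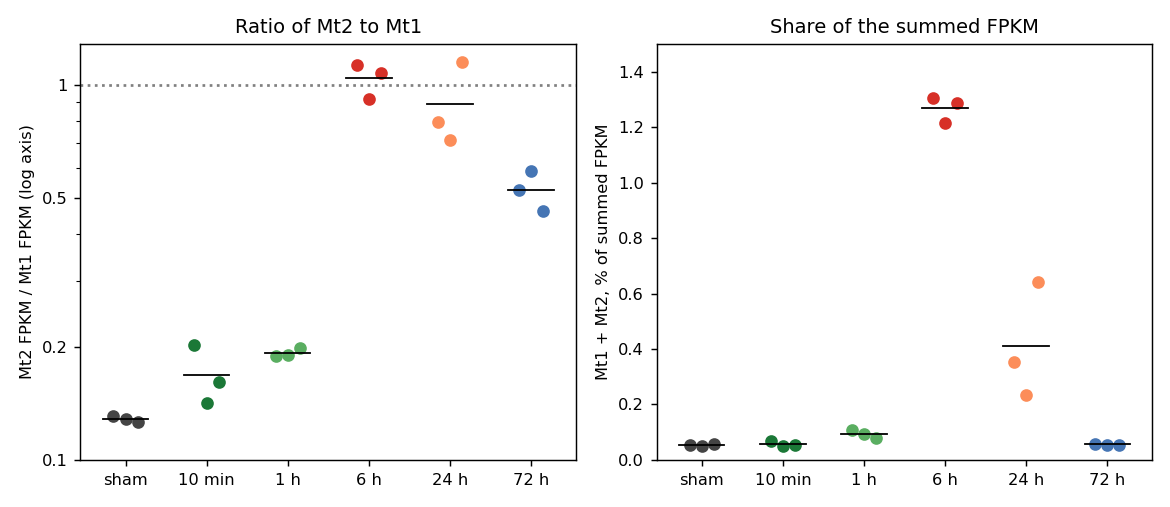
Ratio of Mt2 to Mt1 FPKM (left, log axis, dotted line at 1) and share of the summed FPKM held by Mt1 and Mt2 together, in percent (right), for each of 18 mice by time; points are mice and lines the mean of 3. The share at 72 h (0.0559%) is close to that of sham (0.0537%), whereas the ratio at 72 h (0.526) is above that of sham (0.129).

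Slc39a14 (ZIP14), which brings zinc, iron and manganese into cells, had its highest levels at 6 h and 24 h. It lies on chromosome 14 from 70303469 to 70351425, minus strand. Its FPKM were 12.6, 13.2 and 14.2 in sham (13.3 ± 0.777), 14.02, 12.03 and 14.9 at 10 min, and 18.1, 15.6 and 12.9 at 1 h. The 6 h mice had 33.8, 25.2 and 28.9 FPKM (29.3 ± 4.32). At 24 h the mice had 24.9, 19.9 and 32.7 FPKM (25.8 ± 6.48) and at 72 h 12.9, 16.1 and 14.5 FPKM (14.5 ± 1.58). All 6 h and 24 h mice were above all mice of the other groups, the 6 h and 24 h groups overlapped, and sham, 10 min, 1 h and 72 h overlapped with their neighbours. Among all genes, 18.6% had all 6 h mice above all sham mice, and 39.3% all 24 h mice. At 1 h, where Mt1 and Mt2 were called higher, Slc39a14 was not (log2 difference 0.20, SE 0.11, adjusted p = 0.524, limma). The 6 h mean was 2.20 times sham, rank 468 of 13321 genes by log2 difference (1.07, SE 0.12, no test). The 24 h mean was 0.881 times the 6 h mean, against 0.334 times for Mt1 and 0.304 times for Mt2, also without a test. At 24 h Slc39a14 rose 1.94-fold (log2 difference 0.88, SE 0.17, adjusted p = 0.0113, limma), and without the first sham mouse the adjusted p was 0.0522. It then fell by 0.77 on the log2 scale from 24 h to 72 h (SE 0.18, adjusted p = 0.0123, limma). At 72 h its log2 difference from sham was 0.11 (SE 0.089, adjusted p = 0.286, limma) with FPKM as deposited, -0.18 (adjusted p = 0.0638) after median-of-ratios scaling and -0.27 (adjusted p = 0.0173) after quantile normalization.

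Slc30a1 (ZnT1), the exporter of zinc at the plasma membrane and a classical MTF1 target, did not share the peak of the metallothioneins at 6 h. It lies on chromosome 1 from 191906767 to 191913247, plus strand, and overlaps the antisense gene 1700034H15Rik, which stayed at or below 0.077 FPKM in every mouse. Slc30a1 had 10.8, 11.2 and 10.6 FPKM in sham (10.9 ± 0.32), 10.1, 11.1 and 12.6 at 10 min, 10.3, 10.2 and 10.7 at 1 h, and 11.9, 9.23 and 9.32 at 6 h (10.1 ± 1.49). The 24 h mice had 12.8, 13.3 and 14.9 FPKM (13.7 ± 1.07) and the 72 h mice 9.001, 10.9 and 9.92 FPKM. Only the 24 h mice stood apart, above all other mice, and the other 5 groups overlapped with their neighbours in level. Among all genes, 39.3% had all 24 h mice above all sham mice. The 6 h mean was 0.933 times sham, a log2 difference of -0.10 (SE 0.11, no test). At 24 h the rise was 1.26-fold (log2 difference 0.31, SE 0.090, adjusted p = 0.0362, limma), and it was not called after median-of-ratios scaling (adjusted p = 0.144), after quantile normalization (0.262) or without the second 24 h mouse or any 1 sham mouse (0.0606 to 0.126). Slc30a1 fell by 0.43 on the log2 scale from 24 h to 72 h (SE 0.11, adjusted p = 0.0186, limma), with an adjusted p of 0.0739 without the first and 0.072 without the third 72 h mouse. At 72 h against sham it had -0.12 (adjusted p = 0.209, limma) with FPKM as deposited and was called lower after median-of-ratios scaling (-0.40, adjusted p = 0.00126) and quantile normalization (-0.53, adjusted p = 0.000293).

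Mtf1, the sensor through which zinc acts on Mt1, Mt2 and Slc30a1, varied little at the level of its own mRNA. It lies on chromosome 4 from 124802104 to 124849800, plus strand. It overlaps the rRNA gene n-R5s192 on the same strand and 1110065P20Rik on the opposite strand. The latter had means from 25.4 FPKM at 6 h to 41.6 FPKM at 72 h. Mtf1 had 8.54, 9.60 and 9.49 FPKM in sham (9.21 ± 0.58), 9.79, 11.5 and 11.2 at 10 min, and 10.5, 9.12 and 7.45 at 1 h. The 6 h mice had 8.55, 7.23 and 9.17 FPKM (8.32 ± 0.996). At 24 h it had 10.4, 10.7 and 13.0 FPKM (11.4 ± 1.4) and at 72 h 8.998, 9.54 and 9.27 FPKM. The 10 min and 24 h mice lay above all sham mice, as in 12.2% of all genes at 10 min and 39.3% at 24 h. Neither difference was called, with 0.21 at 10 min (SE 0.083, adjusted p = 0.31, limma) and 0.27 at 24 h (SE 0.11, adjusted p = 0.0906, limma) on the log2 scale. At 72 h the log2 difference was 0.01 (adjusted p = 0.907, limma) with FPKM as deposited, and Mtf1 was called lower after median-of-ratios scaling (-0.27, adjusted p = 0.00642) and after quantile normalization (-0.41, adjusted p = 0.000719). Across the 18 mice, Mtf1 and Mt2 had a Pearson r of -0.092 and Mtf1 and Slc30a1 of 0.668, against 0.948 for Slc39a14 and Mt2 and 0.945 for Mt1 and Mt2, given as a description over mice that share groups. Spearman's rho of the same pairs, in the same order, was -0.187, 0.598, 0.847 and 0.657.

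Markers of other cell types moved in the same tissue, and in bulk tissue fewer cells of a type and less RNA per cell cannot be told apart. The summed FPKM of 6 cardiomyocyte markers was 45432 to 48910 in sham, 38236 to 48121 at 6 h and 16337 to 20411 at 72 h, where 6 of 6 were called lower, and heart muscle markers were thus high in every mouse. The 6 neutrophil markers summed to 2.56 to 5.28 FPKM in sham, with 5 of 6 under a mean of 1, 5.90 to 24.5 at 10 min, 17.1 to 30.5 at 1 h, 117 to 1001 at 6 h, 45.2 to 996 at 24 h and 54.9 to 67.8 at 72 h. Against sham, limma called 0 of them at 10 min (5 with an unadjusted p under 0.05), 2 higher at 1 h (6 with an unadjusted p under 0.05), 6 higher at 6 h and 5 at either later time. Of all genes, 0.248%, 0.669%, 11.6%, 26.2% and 53.1% were called higher at 10 min, 1 h, 6 h, 24 h and 72 h. The shares called lower were 16.8% at 6 h, 11.4% at 24 h and 24.2% at 72 h. Both Mt1 and Mt2 and 2 of the 6 neutrophil markers were called higher at 1 h, where 4 of the 6 had a mean under 1 FPKM. The 10 min mouse with the highest Mt2 (68.2 FPKM) also had the highest neutrophil sum of its group (24.5 FPKM against 8.78 and 5.90). The order of the other mice of that group was the opposite in Mt2 (36.1 and 42.6 FPKM). At 24 h the order of the mice by neutrophil sum (216, 45.2 and 996 FPKM) was that of their Mt1, Mt2 and Slc39a14. The 1 h sums (30.5, 17.1 and 20.6 FPKM) did not have the order of Mt2 (99.1, 84.1 and 76.2 FPKM), Mt1 or Slc39a14. The 72 h sums (54.9, 67.8 and 67.1 FPKM) had the order of Slc39a14 (12.9, 16.1 and 14.5 FPKM). They had the reverse order of Mt1 (214, 189 and 204 FPKM) and not that of Mt2 (112, 112 and 94.4 FPKM). At 6 h the neutrophil sums were 1001, 117 and 377 FPKM, in the order of Mt2 (4027, 3488 and 3923 FPKM) and Slc39a14 (33.8, 25.2 and 28.9 FPKM) and in the reverse order of Mt1 (3556, 3804 and 3648 FPKM). The endothelial sums of the 6 h mice (862, 651 and 656 FPKM) had the order of their neutrophil sums. The cardiomyocyte sums (38236, 48121 and 40778 FPKM) had the reverse order. With 3 mice a group these orders are a description, and the part of any cell type in these values was not tested at any time. Macrophage and monocyte markers summed to 187 to 212 FPKM in sham, 140.4 to 228 at 6 h, 474 to 653 at 24 h and 3399.9 to 4510 at 72 h (2 of 6 called higher and 1 lower at 6 h, 6 higher at 24 h and at 72 h). Fibroblast markers summed to 209.6 to 222 FPKM in sham and 1919 to 2278 at 72 h, with 6 of 6 called higher at 72 h. Their part in the 72 h values was not tested either. Of the 6 endothelial markers, 1 was called higher and 3 lower at 72 h, of 5 erythroid markers tested 2 were lower, and the single lymphocyte marker tested was higher.

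The other metallothionein and zinc transporter genes were taken whole by symbol, 24 genes of which 15 passed the filter. At 10 min and at 1 h limma called 0 of the 15, and 2 and 0 of them had an unadjusted p under 0.05. At 6 h, where 11.6% of all genes were called higher and 16.8% lower, 4 were higher and 2 lower. Of these only Slc39a1 (ZIP1, an importer at the plasma membrane) was called with every mouse left out in turn and under every other setting tried. It had 26.0 ± 1.28 FPKM in sham and 43.8 ± 2.84 at 6 h (log2 difference 0.73, SE 0.081, adjusted p = 0.00169, limma). Slc39a6, Slc39a10 and Mt3 were the other genes called higher and Slc39a3 and Slc39a13 those called lower, each with an absolute log2 difference of at most 0.61 and each lost without the first or without the second sham mouse. Without the first or the second sham mouse, 763 and 824 of all genes were called higher, beside 1543 with all mice. Those called lower numbered 877 and 1016, beside 2233. Mt3, the metallothionein best known from the brain, had 0.504 ± 0.151 FPKM in sham and 1.12 ± 0.313 at 6 h, far under the level of Mt1 and Mt2.

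With FPKM as deposited, more of these genes were called higher at 24 h and 72 h than at 6 h, as was also the case over all genes. At 24 h 10 of 15 were higher and 0 lower, beside 26.2% and 11.4% of all genes, and at 72 h 12 were higher and 1 lower, beside 53.1% and 24.2%. With single mice left out, 5 to 9 were higher at 24 h, with 5 or 6 without any 1 sham mouse or without the second 24 h mouse. The importers without Slc39a14 (9 tested) had median log2 differences of 0.09, 0.75 and 1.09 at 6 h, 24 h and 72 h. The exporters without Slc30a1 (5 tested) had -0.04, 0.33 and 0.74, beside -0.083, 0.13 and 0.29 over all genes. Slc39a11 (ZIP11) rose from 1.61 ± 0.139 FPKM in sham to 10.1 ± 1.62 at 72 h (log2 difference 2.08, SE 0.11, adjusted p = 6.13e-07, limma), and Slc39a6 (ZIP6) from 1.80 ± 0.261 to 9.40 ± 1.502 FPKM (log2 difference 1.89, SE 0.12, adjusted p = 1.51e-06, limma). Slc39a8 (ZIP8), the family member closest to Slc39a14, had 0.543 ± 0.101 FPKM in sham, 1.06, 0.656 and 2.92 FPKM at 6 h, 0.452 ± 0.046 at 24 h and 3.23 ± 0.68 at 72 h (log2 difference 1.45, SE 0.13, adjusted p = 9.98e-06, limma). Unlike Slc39a14, which overlapped with sham at 72 h, it was highest in the last group. Among the exporters, Slc30a7 (ZnT7, of the Golgi) rose to 12.7 ± 0.679 FPKM at 72 h from 4.77 ± 0.392 (log2 difference 1.25, SE 0.081, adjusted p = 1.73e-06, limma). Slc30a9, the most abundant of the other family members in sham, fell from 69.5 ± 3.86 to 41.9 ± 0.583 FPKM at 72 h (log2 difference -0.72, SE 0.064, adjusted p = 1.17e-05, limma). The remaining genes called higher at 72 h were Slc39a1, Slc39a7, Slc39a9, Slc39a10, Slc39a13, Slc30a4, Slc30a5 and Slc30a6, with log2 differences from 0.55 to 1.19. After median-of-ratios scaling or quantile normalization, 6 of the 15 genes were called higher and 1 lower at 24 h, and 11 higher and 3 lower at 72 h. Over all genes these scalings, in this order, gave 2535 and 2215 higher and 2317 and 2689 lower at 24 h. For 72 h they gave 5243 and 4386 higher and 4752 and 5710 lower.

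**Figure D3:**
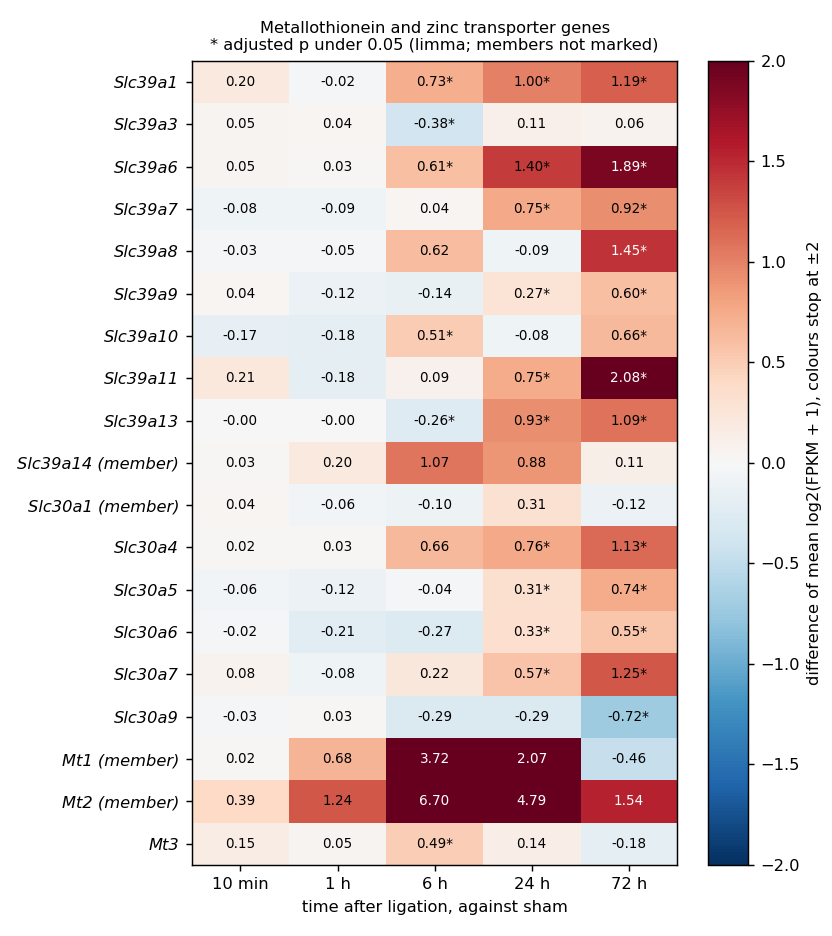
Difference of mean log2(FPKM + 1) from sham at 10 min, 1 h, 6 h, 24 h and 72 h for the 19 tested genes of the Slc39a, Slc30a and metallothionein families, as coloured cells with the value in each; a star marks an adjusted p under 0.05 (limma) and is not used for Mt1, Mt2, Slc39a14 and Slc30a1. Mt1 and Mt2 are highest at 6 h (3.72 and 6.70), whereas Slc39a11 and Slc39a6 are highest at 72 h (2.08 and 1.89).

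Further genes tied to MTF1 and genes of copper handling were listed by symbol as well. Of 6 tested MTF1-tied genes, 0 were called by limma at 10 min and at 1 h (0 and 1 with an unadjusted p under 0.05), and 3, 2 and 5 were higher at 6 h, 24 h and 72 h, with 0 called lower at any time. Of all genes, 11.6%, 26.2% and 53.1% were called higher at these last 3 times, and 16.8%, 11.4% and 24.2% lower. With single mice left out, 1 to 4 of them were higher at 24 h, with 1 without any 1 sham mouse or the second 24 h mouse and 4 without the first 24 h mouse. In the same fits, 1262 to 4043 of all genes were called higher, beside 3496 with all mice. Pgf, a growth factor of the VEGF family, had 5.21 ± 0.374 FPKM in sham and 49.2 ± 18 at 6 h (log2 difference 2.96, SE 0.22, adjusted p = 0.000473, limma), and Ndrg1 had 24.2 ± 1.25 and 40.7 ± 5.47 FPKM (0.72, SE 0.11, adjusted p = 0.00404, limma). Slc40a1, the iron exporter ferroportin, was called only at 72 h, at 12.9 ± 3.86 against 4.35 ± 0.743 FPKM in sham (log2 difference 1.35, SE 0.19, adjusted p = 0.000184, limma). Among 12 copper genes, 0 were called by limma at 10 min and at 1 h (3 and 1 with an unadjusted p under 0.05). In the 6 h mice 3 were higher and 2 lower (11.6% and 16.8% of all genes). The list had 2 higher and 2 lower genes at 24 h (26.2% and 11.4% of all genes), and 5 higher and 4 lower ones at 72 h (53.1% and 24.2%). With single mice left out, 0 to 4 copper genes were lower at 6 h, and 0 to 2 were higher and 0 to 3 lower at 24 h, where 0 were called in either direction without any 1 sham mouse. Over all genes these fits called 852 to 2894 lower at 6 h, beside 2233 with all mice. For 24 h they called 1262 to 4043 higher and 366 to 1796 lower, beside 3496 and 1516. Under the other settings tried, 1 to 5 copper genes and 1211 to 2689 of all genes were lower at 24 h. The metalloreductase Steap4 had 126 ± 10.5 FPKM in sham and 266 ± 26.5 at 6 h (log2 difference 1.07, SE 0.099, adjusted p = 0.000853, limma), and the copper pump Atp7a 19.9 ± 2.56 and 37.3 ± 8.37 FPKM (0.86, SE 0.16, adjusted p = 0.01, limma).

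Glucocorticoid-responsive and STAT3 or acute-phase genes stand for the other known inputs to metallothionein genes, as background, and no link between them and Mt1 or Mt2 was tested. Of 10 glucocorticoid-responsive genes, the numbers called higher from the first to the last time were 1, 4, 7, 5 and 3, and 1 was lower at 24 h and 5 at 72 h. In the same order, 0.248%, 0.669%, 11.6%, 26.2% and 53.1% of all genes were called higher. The shares of all genes called lower were 11.4% at 24 h and 24.2% at 72 h. Fkbp5, a co-chaperone of the glucocorticoid receptor, had 15.1 ± 2.77 FPKM in sham, 134 ± 22.7 at 6 h (log2 difference 3.08, SE 0.16, adjusted p = 0.00015, limma) and 31.0 ± 2.27 at 72 h. Zbtb16 rose to 28.1 ± 3.34 FPKM at 6 h from 9.78 ± 2.52 (log2 difference 1.45, SE 0.17, adjusted p = 0.00184, limma) and was at 1.66 ± 0.342 FPKM at 72 h (-2.001, SE 0.17, adjusted p = 7.32e-06, limma). The genes called at 1 h were Sgk1, Cebpd, Dusp1 and Errfi1, of which Cebpd went from 10.4 ± 0.933 to 30.9 ± 3.75 FPKM (log2 difference 1.49, SE 0.099, adjusted p = 0.000332, limma). Of 15 STAT3 or acute-phase genes, the numbers called higher in the same order were 1, 3, 15, 14 and 14, with 1 gene, Lrg1, lower at 72 h. Socs3, a feedback inhibitor of cytokine signalling, had 1.61 ± 0.124 FPKM in sham, 12.9 ± 0.979 at 1 h (log2 difference 2.41, SE 0.083, adjusted p = 1.04e-05, limma) and 51.6 ± 31.4 at 6 h (4.17, SE 0.36, adjusted p = 0.000659, limma). Lrg1 had 13.1 ± 0.792 FPKM in sham, 67.6 ± 12.8 at 6 h and 9.01 ± 0.949 at 72 h, where the log2 difference was -0.50 (SE 0.089, adjusted p = 0.000812, limma), so that it passed below sham as Mt1 did. With single mice left out, the number of these genes called higher at 24 h ran from 1 to 5 for the glucocorticoid list and from 8 to 15 for the STAT3 list. The number over all genes ran from 1262 to 4043, beside 3496 with all mice.

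The genes whose FPKM followed each member most closely were taken by Pearson r of log2(FPKM + 1) over the 18 mice, among 11511 other genes with a mean FPKM of at least 1, leaving out symbols of predicted genes. Closest to Mt2 were Syt12 (r = 0.986), Pgf (0.975), Hbegf (0.974), Lcn2 (0.972) and Ifrd1 (0.967). Syt12 was low outside 6 h and 24 h, with means of 0.391, 0.535, 0.556 and 0.767 FPKM in sham, 10 min, 1 h and 72 h. Its Spearman's rho was 0.944 with Mt2 and 0.581 with Mt1. Pgf and Hbegf encode growth factors, and Lcn2 encodes lipocalin 2, which binds the iron carriers of bacteria. Closest to Mt1 were Lrg1 (0.976), Tinagl1 (0.958), Slc10a6 (0.958), Syt12 (0.950) and Limd1 (0.948), and closest to Slc39a14 were Pgf (0.967), Ifrd1 (0.957), Pvr (0.954), Akap2 (0.953) and Eif5 (0.948). Lrg1, Tinagl1 and Slc10a6 were below their sham means at 72 h, as Mt1 was. Slc30a1 and Mtf1 had lower values, with Vcp (0.849) first for Slc30a1 and Ddx19b (0.833) first for Mtf1. With Spearman's rho over the mice or Pearson's r over the 6 group means, between 0 and 3 of the 5 genes of each list were shared. The values come from mice that share groups, and no p is given.

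**Figure D4:**
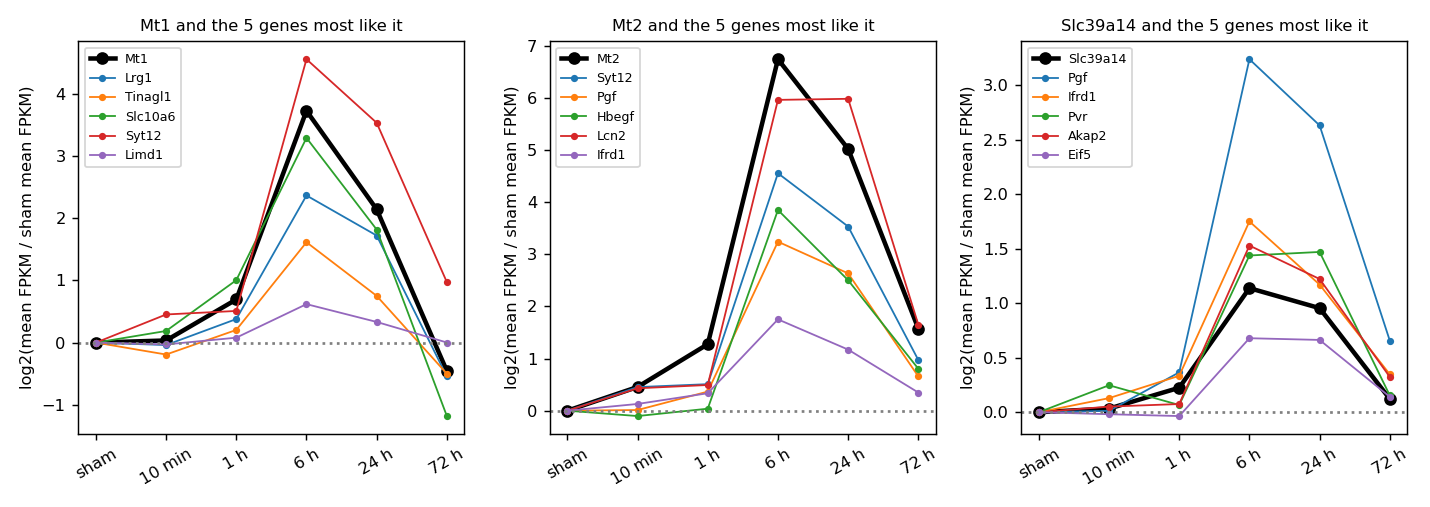
Log2 of the ratio of the group mean FPKM to the sham mean for Mt1, Mt2 and Slc39a14 (thick black lines) and for the 5 genes with the highest Pearson r to each over 18 mice (thin lines), by time after ligation. All lines peak at 6 h or 24 h, and Lrg1, Tinagl1 and Slc10a6 end below 0 at 72 h, as does Mt1.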

How the data were processed

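Left ventricles of 18 mice, 3 at each of 5 times after ligation and 3 controls, were sequenced as polyA RNA. Per the labels and the study's methods, the authors used cutadapt 1.18 for trimming, HISAT2 2.1.0 for mapping to mm10 and StringTie 1.3.4d for expression. The deposited values are FPKM by symbol and mouse, made by the authors with replicates kept apart, and the annotation is not given in the sources used here. Mice were grouped by sample titles, and 4 of the column names were matched to titles despite a misprinted letter. FPKM are relative to all mapped fragments, so a rise of abundant genes lowers the rest, and the summed FPKM ran from 542418 to 600467. Counts are not in the table, and depth relative to the first control mouse, estimated from FPKM up to 0.3, ran from 0.818 to 1.31.

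Values were taken as log2(FPKM + 1), which understates the change of low genes. Genes that reached an FPKM of 1 in any mouse were tested with limma 3.58.1 in R 4.3.3 (eBayes with a variance trend, two-sided) and adjusted by Benjamini-Hochberg over the 13297 to 13330 genes of a comparison. SE is limma's standard error. Nothing states that mice of a group came from separate litters, and with 3 against 3 a permutation test cannot go below p = 0.1. Replicate numbers were not taken as pairs. The members and gene lists were chosen with earlier results of these data known. The members were named whole, family genes where called at 24 h or 72 h or changed over 2-fold at 6 h, list genes as examples, and the 5 genes most like each member. Slc39a3, outside that rule, was added after its values were seen. Alternatives were a pseudocount of 0.1, no filter, a mean FPKM of at least 1, 3 scalings, 1 fit of all mice, a replicate block, no variance trend and leaving out each mouse. Steps were tested on simulated data. Tables and plots were made with Python 3.11.15, pandas 2.3.3 and matplotlib 3.10.9.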

Additional observations from a re-analysis of the deposited data

Results flagged for a closer look

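The change against control differed between 24 h and 72 h for 4 of the 5 genes by the direct limma test of both groups, in which 13.5% of all genes were called lower. The log2 difference of 72 h minus 24 h was -2.52 for Mt1, -3.25 for Mt2, -0.77 for Slc39a14 and -0.43 for Slc30a1, with adjusted p of 0.00032, 0.000789, 0.0123 and 0.0186, and every 72 h mouse lay below every 24 h mouse in each of these genes and in Mtf1 (adjusted p = 0.098). No group had enough mice for a check of single outlying mice.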

How the results depend on the processing

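Mt1 and Mt2 kept their direction and call at 24 h, at 72 h and from 24 h to 72 h under every setting and with any mouse left out. The number of members called higher at 1 h was 2, and 1 with no filter, with a replicate block or with no variance trend, 0 in 1 fit of all mice and 1 to 2 with a mouse left out. Replicate numbers were not taken as pairs, since the sample titles name no pairing. No comparison had a correlation of deviations over 0.1 in every same-numbered pair (0.196, 0.0905 and 0.148 from 10 min to 1 h, the closest). This cannot show that the mice were unpaired. The replicate block gave 1 member higher from 10 min to 1 h (Mt1, adjusted p = 0.0304) in place of 0 and 3 in place of 4 at 24 h, and 0 in place of 2 other family genes lower at 6 h. Median-of-ratios scaling and quantile normalization gave, for other family genes, 0 and 1 lower at 6 h, 6 and 6 higher and 1 and 1 lower at 24 h (1 lower also in 1 fit of all mice), and 3 and 3 lower at 72 h. They gave 3 and 4 members lower at 72 h in place of 1, while 4752 and 5710 of all genes were called lower in place of 3226. Slc39a14 was at -0.18 and -0.27 and Mtf1 at -0.27 and -0.41. Quantile normalization gave -0.013 for Mt1 at 10 min and -0.12 for Slc31a2 at 72 h. From 24 h to 72 h Mtf1 was called lower by limma after both scalings (adjusted p = 0.0139 and 0.00581). The cause of these changes was not tested.

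With 1 mouse left out, log2 differences ran from -0.10 to 0.099 for Mt1, from -0.033 to 0.11 for Slc39a14 and from -0.033 to 0.11 for Slc30a1 at 10 min, from -0.14 to 0.082 for Mtf1 at 1 h and from -0.038 to 0.038 for Mtf1 at 72 h. Members called higher numbered 2 to 4 at 24 h (2 without the first sham mouse) and 0 to 1 from 10 min to 1 h. Other family genes numbered 1 to 6 higher and 0 to 2 lower at 6 h, and 5 to 9 higher and 0 to 1 lower at 24 h. Over all genes these fits called 763 to 1786 higher and 852 to 2894 lower at 6 h. They called 1262 to 4043 higher and 366 to 1796 lower at 24 h, and 33 to 76 higher from 10 min to 1 h. The table holds no counts, so counting error could not be given, and 3 mice a group limit all calls.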
